A study of Mus musculus with 40 samples.

Results

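The Cyp2b cytochrome P450 genes of the mouse were followed here across 8 groups of 5 livers. All probes whose annotated symbol begins with Cyp2b and a digit were taken, which gave 8 of the 23574 probes on the array. They belong to 5 genes: Cyp2b9 and Cyp2b13 with 2 probes each, Cyp2b19 with 2 probes, and Cyp2b10 and Cyp2b23 with 1 probe each. Within a gene, the probe with the larger SD over the 40 arrays is called probe A and the other probe B. The Entrez identifiers are 13094 for Cyp2b9, 13089 for Cyp2b13, 13088 for Cyp2b10, 243881 for Cyp2b23 and 13090 for Cyp2b19. No value of these 8 probes was missing or at the limit of the deposited scale.

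All 40 mice were C57BL/6J, were sacrificed at 14 weeks of age after a fast of 12 h and had eaten chow with 4% fat. Of the 8 groups, 2 kept their gonads, 1 of each sex, and the other 6 were ovariectomized females or castrated males that received a pellet of placebo, of 0.5 mg estradiol or of 5 mg dihydrotestosterone (DHT). Gonads were removed at 8 weeks and pellets, made to release over 21 days, were implanted at 12 weeks, with stated plasma aims of about 300 pg/ml for estradiol and 1 to 2 ng/ml for DHT. The labels do not say whether intact animals carried a pellet. DHT is an androgen that aromatase does not turn into an estrogen. Each array compared 1 liver, labelled with Cy5, with a pool of 40 livers labelled with Cy3, and each value below is a log2 ratio of the liver to that pool. Such a ratio shows how a gene differs between animals and gives no absolute level, so no probe was set against another probe by level. In whole liver, a change in RNA per cell and a change in the number of cells of a type cannot be told apart.

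CYP2B enzymes are membrane-bound monooxygenases of the endoplasmic reticulum that oxidize steroids, drugs and other lipophilic compounds, with electrons from cytochrome P450 reductase and a heme at the active site. The nuclear receptor CAR is the main xenobiotic regulator of the family, with Cyp2b10 as its best-known mouse target, and PXR shares many of its targets. Many other liver P450 genes differ between the sexes because the pituitary secretes growth hormone in pulses in males and more continuously in females, a signal that reaches the nucleus through STAT5. Cyp2b9 and Cyp2b13 are textbook female-predominant genes of mouse liver, while Cyp2b19 is known chiefly as an epidermal arachidonic acid epoxygenase of keratinocytes.

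In the RefSeq gene order on mouse chromosome 7, the coding genes run Cyp2b10, Cyp2b13, Cyp2b9, Cyp2a4, Cyp2b23, Cyp2b19, Cyp2g1, Cyp2a5 and Cyp2a22, with pseudogenes, noncoding genes and members of the Nlrp and Vmn1r families between some of them. The 250 bases just upstream of the annotated start of the 2 genes with the widest range are shown because they are almost the same sequence. They come from RefSeq on GRCm38.p6, where the window upstream of Cyp2b9 is chr7:26173159-26173408 and that upstream of Cyp2b13 is chr7:26061245-26061494, both on the plus strand. Capitals mark the positions at which the 2 windows differ.
Cyp2b9: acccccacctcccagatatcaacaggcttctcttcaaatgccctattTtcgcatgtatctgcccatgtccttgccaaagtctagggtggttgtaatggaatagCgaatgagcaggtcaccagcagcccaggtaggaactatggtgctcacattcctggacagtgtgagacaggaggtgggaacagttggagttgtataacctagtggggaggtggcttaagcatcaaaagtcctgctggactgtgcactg
Cyp2b13: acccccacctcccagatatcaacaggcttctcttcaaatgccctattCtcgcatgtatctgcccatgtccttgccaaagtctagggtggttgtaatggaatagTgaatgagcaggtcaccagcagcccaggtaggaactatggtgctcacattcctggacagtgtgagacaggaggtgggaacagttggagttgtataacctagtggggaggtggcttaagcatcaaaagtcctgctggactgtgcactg
The 2 windows were identical at 248 of 250 positions (99.2%), with 2 mismatches and 0 gaps. The Cyp2b10 window, chr7:25897408-25897657 on the plus strand, is shown for contrast because Cyp2b10 is the nearest other coding Cyp2b gene in this order and had a smaller range. Its capitals mark bases that differ from Cyp2b9 in a global alignment.
Cyp2b10: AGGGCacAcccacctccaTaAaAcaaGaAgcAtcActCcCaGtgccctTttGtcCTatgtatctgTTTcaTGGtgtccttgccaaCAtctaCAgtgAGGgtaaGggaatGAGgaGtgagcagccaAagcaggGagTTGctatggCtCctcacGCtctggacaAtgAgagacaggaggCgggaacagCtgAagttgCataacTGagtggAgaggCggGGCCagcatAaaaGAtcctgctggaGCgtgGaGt
Cyp2b10 was identical to Cyp2b9 at 182 aligned positions, which is 70% of the alignment with gaps counted. Cyp2b19 and Cyp2b23 were identical to Cyp2b9 over 63.1% and 63.0% of their alignments, also with gaps counted.

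Short motifs were searched on both strands of these windows. The STAT5 motif TTCNNNGAA, the palindromic estrogen receptor element, the palindromic androgen receptor element, the HNF6 motif ATTGAT and the FOXA motif TGTTTAC had 0 matches in all 5 windows. Of the 32851 RefSeq windows of the same length, 7.02% held the STAT5 letters, 0.0639% the estrogen receptor letters, 0.00913% the androgen receptor letters, 6.72% the HNF6 letters and 3.17% the FOXA letters. The hexamer AGGTCA, which nuclear receptors such as CAR recognize occurred 1 time in each window except that of Cyp2b10, against 14.0% of all windows. The C/EBP motif TTGCNNAA occurred 1 time in each of the 5 windows, against 9.56% of all windows. The run CATAAAA, chosen after the sequences were seen, occurred 2 times in Cyp2b10, 1 time each in Cyp2b19 and Cyp2b23 and 0 times in Cyp2b9 and Cyp2b13, against 3.77% of all windows. These matches describe letters only.

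Within the DHT groups, 2 animals stood apart from the others of their groups and are named before the results. The counts below were also made in ovariectomized females with estradiol, but not in the remaining groups. Animal 53, an ovariectomized female with DHT, was the highest of its 5 group members in 12 of 19 measured female-biased genes other than Cyp2b, and the lowest in 13 of 17 male-biased genes. Animal 61, a castrated male with DHT, was the highest of its group in 13 of the 19 and the lowest in 14 of the 17. In ovariectomized females with estradiol the largest such counts were 8 of the 19 (animal 33) and 5 of the 17 (animals 34 and 35). These counts were not made over all probes. Values without these 2 animals are given beside the DHT results for Cyp2b9 and Cyp2b13, a choice made after their values were seen. Both animals were the highest of their groups for Cyp2b9 and Cyp2b13 probe A. Leaving them out therefore had to enlarge the DHT differences from placebo, so those fits are no independent evidence for them. As ratios to a liver pool, marker genes cannot show which cell types are present, but they can show shifts between groups. The mean log2 ratio of 5 hepatocyte markers lay between -0.39 and 0.20 in all 40 livers. Of those 5, Ttr was higher in intact females than in intact males (0.57) and Serpina1c was lower in castrated than in intact males (-0.73; limma, adjusted p = 0.0096 and 0.016). Over all probes, the median difference in the 31 comparisons lay between -0.03 and 0.02.

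Cyp2b9 and Cyp2b13 were lowest in intact males and high in intact females, in placebo-treated ovariectomized females and in placebo-treated castrated males. In intact females Cyp2b13 probe A read 0.48, 0.80, 0.78, 0.68 and 0.70, a mean of 0.69 ± 0.12 (SD, n = 5). In intact males it read -5.32, -5.66, -5.43, -4.80 and -6.06, a mean of -5.45 ± 0.46 (SD, n = 5). Every female lay above every male by more than 5 log2 units. Cyp2b9 probe A read 0.46, 0.55, 0.93, 0.48 and 0.77 in intact females, a mean of 0.64 ± 0.20 (SD, n = 5). In intact males it read -4.66, -4.79, -4.52, -3.97 and -6.03, a mean of -4.79 ± 0.76 (SD, n = 5). The sexes did not overlap for this probe either, and the lowest male was the same animal, animal 12, for both genes.

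The intact sex difference was 6.14 ± 0.72 (SE) for Cyp2b13 probe A, a 70.6-fold higher ratio in females (limma, adjusted p = 1.7e-07). It was 5.43 ± 0.61 (SE) for Cyp2b9 probe A, a 43.2-fold higher ratio (limma, adjusted p = 7.8e-08). Signal over background was unknown, so how near the male values lie to the floor of the array is unknown, and the fold changes carry that limit. Of the 8 Cyp2b probes, 6 were higher and 1 was lower in intact females at an adjusted p under 0.05, and the same number, 7, did not overlap between the sexes. Over all 23574 probes, 8.69% passed in this comparison, 3.33% higher and 5.36% lower. The share of all probes without overlap between the sexes was not counted.

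**Figure D1:**
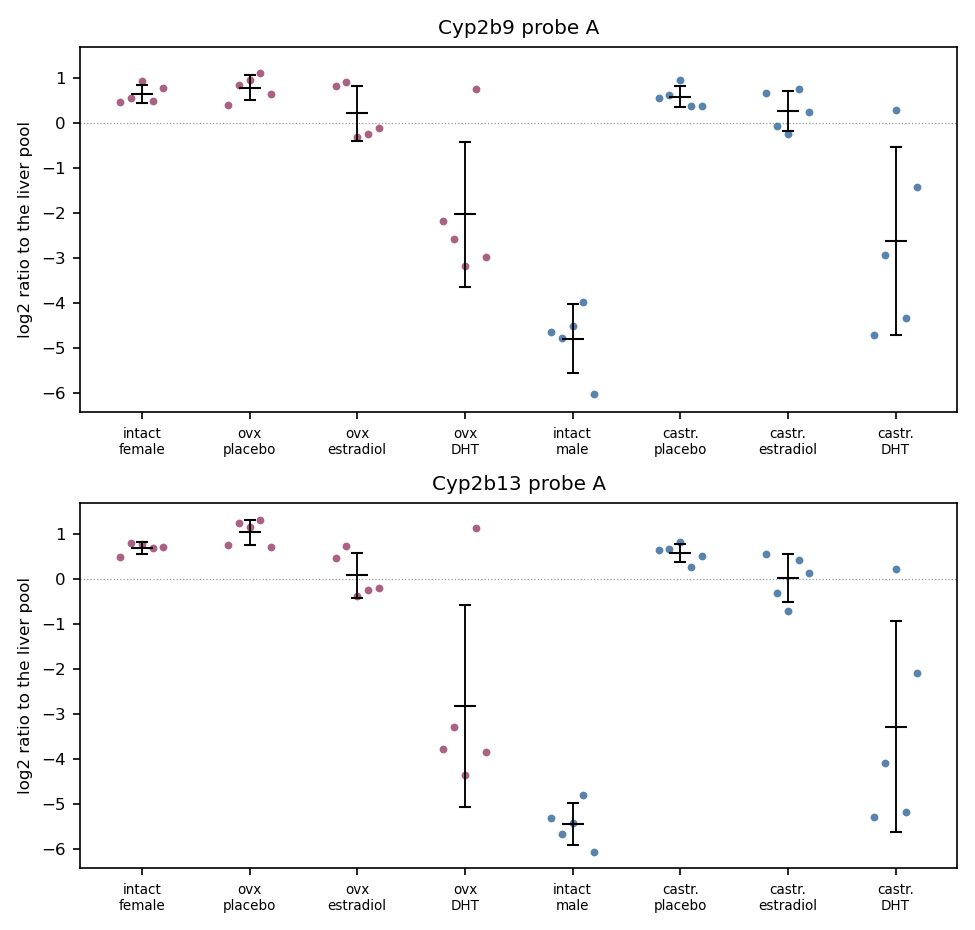
Log2 ratio to the liver pool of Cyp2b9 probe A and Cyp2b13 probe A in each of 40 livers, by group, females in purple and males in blue. Points are single animals and bars are the mean ± SD of 5. Intact males lie between -6.06 and -3.97, placebo-treated gonadectomized animals of both sexes lie above 0, and each DHT group holds 1 animal above 0.

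Castrated males did not show the low level of intact males. In castrated males with placebo Cyp2b13 probe A read 0.64, 0.65, 0.81, 0.26 and 0.51, a mean of 0.58 ± 0.20 (SD, n = 5), and every castrated male lay above every intact male. The difference was 6.03 ± 0.72 (SE), or 65.4-fold (limma, adjusted p = 1.7e-07). Cyp2b9 probe A read 0.55, 0.63, 0.95, 0.38 and 0.38, a mean of 0.58 ± 0.24 (SD, n = 5). Its difference from intact males was 5.37 ± 0.61 (SE), or 41.4-fold (limma, adjusted p = 6.6e-08). In this comparison 5 of the 8 Cyp2b probes were higher and 1 was lower, against 12.1% of all probes called, 5.2% higher and 6.92% lower. The sex and castration comparisons share the intact males.

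Ovariectomy left no difference past the threshold. In ovariectomized females with placebo Cyp2b13 probe A read 0.74, 1.23, 1.15, 1.32 and 0.71, a mean of 1.03 ± 0.28 (SD, n = 5), and 3 of these 5 animals lay above all intact females. The difference from intact females was 0.34, with a 95% interval from -1.11 to 1.80 (limma, adjusted p = 1.00). Cyp2b9 probe A read 0.39, 0.84, 0.95, 1.11 and 0.63, and its difference was 0.14, with an interval from -1.09 to 1.38. None of the 8 Cyp2b probes passed with limma, 0 of them at an unadjusted p under 0.05, against 0.0339% of all probes called. All groups share 1 spread per probe in this fit, and for both A probes the DHT groups, given below, had the largest SDs. In a fit of the 2 groups alone, the Cyp2b13 probe A difference had an interval from 0.08 to 0.61 and still did not pass (limma, adjusted p = 0.62).

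The response to gonadectomy differed between the sexes. The effect in females minus that in males was -5.69 ± 1.02 (SE) for Cyp2b13 probe A (limma, adjusted p = 0.00055) and -5.23 ± 0.86 (SE) for Cyp2b9 probe A (limma, adjusted p = 0.00023). It also passed for Cyp2b10 at -1.15, for Cyp2b19 probe A at 0.67 and for Cyp2b9 probe B at -0.30, so 5 of 8 probes passed, against 4.40% of all probes. After gonadectomy and placebo, ovariectomized females and castrated males did not differ past the threshold in any of the 8 probes (limma, 0 at an unadjusted p under 0.05, 0.0679% of all probes called). Cyp2b9 probe A then differed between the sexes by 0.21, with an interval from -1.03 to 1.45. With these 2 groups alone in the fit, Cyp2b13 probe A was 0.45 higher in ovariectomized females, with an interval from 0.16 to 0.75. Cyp2b13 probe B was 0.21 higher, with an interval from 0.0065 to 0.41, and neither passed (limma, adjusted p = 0.45 and 0.74).

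DHT lowered Cyp2b9 and Cyp2b13 in castrated males, but unevenly from animal to animal. In castrated males with DHT, Cyp2b13 probe A read -5.28, -4.10, 0.23, -5.17 and -2.10 in animals 59 to 63, a mean of -3.28 ± 2.34 (SD, n = 5). Animals 59 and 62 lay within the range of intact males, animals 60 and 63 lay between that range and placebo, and animal 61 lay just below the lowest castrated male with placebo, at 0.26. Cyp2b9 probe A read -4.72, -2.94, 0.29, -4.34 and -1.43 in the same animals, with the same order from lowest to highest, and a mean of -2.63 ± 2.08 (SD, n = 5). DHT minus placebo was -3.86 ± 0.72 (SE) for Cyp2b13 probe A, 14.5-fold lower (limma, adjusted p = 0.0013), and -3.20 ± 0.61 (SE) for Cyp2b9 probe A, 9.21-fold lower (limma, adjusted p = 0.0016). With a spread from these 2 groups alone neither call held (limma, adjusted p = 0.063 and 0.079). Without animals 53 and 61 the differences were -4.74 and -3.93 and both passed (limma, adjusted p = 1.5e-10 and 7.1e-08).

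DHT also lowered both genes in ovariectomized females. Cyp2b13 probe A read -3.78, -3.29, -4.36, 1.14 and -3.84 in animals 50 to 54, a mean of -2.83 ± 2.25 (SD, n = 5). The other 4 lay at -3.29 or below, and animal 53 lay within the range of the placebo group. Cyp2b9 probe A read -2.17, -2.59, -3.18, 0.76 and -2.99, a mean of -2.03 ± 1.61 (SD, n = 5), with animal 53 again alone above 0. DHT minus placebo was -3.86 ± 0.72 (SE) for Cyp2b13 probe A, 14.5-fold lower (limma, adjusted p = 0.0043), and -2.82 ± 0.61 (SE) for Cyp2b9 probe A, 7.05-fold lower (limma, adjusted p = 0.014). The Cyp2b9 call was lost without animal 52 or without animal 54 (limma, adjusted p = 0.059 and 0.066). Without animals 53 and 61 the differences were -4.85 and -3.52 and both passed (limma, adjusted p = 7.4e-11 and 6.7e-07).

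Among the 8 Cyp2b probes, DHT in castrated males left 5 lower and 1 higher at the threshold, against 3.47% of all probes, 1.57% lower and 1.91% higher. In a fit of the 2 groups alone 2 of the 8 passed, and without animals 53 and 61 it was 7. In ovariectomized females 3 were lower and 0 higher, against 1.15% of all probes, 0.518% lower and 0.632% higher. Without animals 53 and 61 it was 4 of 8. These shares of all probes come from the fit of all groups and all animals. No share is given for the other fits, so their counts of 2, 7 and 4 have no background to be read against. Among 6 endothelial markers Tek was lower with DHT in castrated males (-0.23) and Lyve1 was higher in ovariectomized females (0.54; limma, adjusted p = 0.020 and 0.031), and the part of such cells in the Cyp2b values was not tested. No DHT effect of the 8 probes differed between the sexes with limma (0 at an unadjusted p under 0.05, 0% of all probes called). For Cyp2b13 probe A that difference was 0.00 with an interval from -2.06 to 2.06, and for Cyp2b9 probe A it was 0.39 with an interval from -1.37 to 2.14. Without animal 61 the Cyp2b13 value was 0.88 and without animal 53 it was -0.99, and without animal 53 the Cyp2b9 value was -0.31.

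Whether the DHT groups stayed above intact males depended on single animals and on the fit. Ovariectomized females with DHT exceeded intact males by 2.63 ± 0.72 (SE) for Cyp2b13 probe A (limma, adjusted p = 0.025) and by 2.76 ± 0.61 (SE) for Cyp2b9 probe A (limma, adjusted p = 0.0044), and no animal overlapped. Without animal 53 these values were 1.63 and 2.06, and the first no longer passed (limma, adjusted p = 0.17 and 0.035). Castrated males with DHT exceeded intact males by 2.17 for both probes, which passed for Cyp2b9 (limma, adjusted p = 0.026) but not for Cyp2b13 (limma, adjusted p = 0.064), and the animals overlapped. Without animal 61 they were 1.29 for Cyp2b13 and 1.44 for Cyp2b9 and neither passed (limma, adjusted p = 0.28 and 0.14). With animals 53 and 61 both left out the differences are these same values and all 4 passed (limma, adjusted p from 0.0032 to 0.047). None of the 4 passed in a fit of only the 2 groups compared or with quantile normalization. The Cyp2b13 call in ovariectomized females was also lost without animal 9 or 12, and the Cyp2b9 call in castrated males without animal 8, 12 or 63. These comparisons use the same intact males, and 4.48% and 6.32% of all probes passed in them.

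With estradiol no Cyp2b probe passed the threshold in either sex. In castrated males with estradiol Cyp2b13 probe A read 0.56, -0.31, -0.71, 0.42 and 0.14, a mean of 0.02 ± 0.53 (SD, n = 5). The difference from placebo was -0.56, with an interval from -2.01 to 0.90 (limma, adjusted p = 0.72). In ovariectomized females with estradiol it read 0.47, 0.74, -0.37, -0.24 and -0.21 in animals 33 to 37, a mean of 0.08 ± 0.49 (SD, n = 5), and the difference from placebo was -0.95, with an interval from -2.41 to 0.51 (limma, adjusted p = 0.75). With the 2 groups alone in the fit the intervals narrowed to -1.03 to -0.08 in castrated males and -1.42 to -0.48 in ovariectomized females, and neither passed (limma, adjusted p = 0.35 and 0.12). Cyp2b9 probe A read 0.66, -0.07, -0.25, 0.74 and 0.24 in castrated males with estradiol, -0.32 relative to placebo. In ovariectomized females with estradiol it read 0.83, 0.91, -0.31, -0.25 and -0.12, -0.58 relative to placebo. Of the 8 probes, 0 passed in either sex with limma, with 0 and 1 at an unadjusted p under 0.05, against 1.18% and 0.632% of all probes called. The 1 probe was Cyp2b13 probe B in ovariectomized females, at -0.43.

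The estradiol groups were not uniform. Among ovariectomized females with estradiol, animals 33 and 34 lay above 0 and animals 35, 36 and 37 below 0 for Cyp2b9 probe A, Cyp2b13 probe A, Cyp2b10 and Cyp2b23 alike, a division seen in the values and not tested. In the same group the mean of 6 Kupffer cell and macrophage markers ranged from -0.33 to 1.80 over the animals, against -0.55 to 0.15 with placebo, and 0 of the 6 passed for estradiol minus placebo. The part of such cells in the Cyp2b values was not tested. Estradiol and DHT used different pellet doses, so hormone and dose cannot be told apart where the pellets are set side by side. Cyp2b13 probe A averaged 0.02 with estradiol and -3.28 with DHT in castrated males, and 0.08 and -2.83 in ovariectomized females.

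The order of the 8 group means was the same for both genes apart from the estradiol groups. From highest to lowest, Cyp2b13 probe A ran ovariectomized with placebo (1.03), intact female (0.69), castrated with placebo (0.58), ovariectomized with estradiol (0.08), castrated with estradiol (0.02), ovariectomized with DHT (-2.83), castrated with DHT (-3.28) and intact male (-5.45). No pair of neighbours in this order differed past the threshold, the closest to it being castrated with DHT against intact male. Sorting places the nearest means side by side, so neighbours show the smallest gaps. Of all 28 pairs of groups, 15 passed for Cyp2b13 probe A and 16 for Cyp2b9 probe A. For Cyp2b9 probe A the means were 0.78, 0.64, 0.58, 0.26, 0.21, -2.03, -2.63 and -4.79 in an order that puts castrated with estradiol before ovariectomized with estradiol. Here the step from ovariectomized with estradiol to ovariectomized with DHT passed (limma, adjusted p = 0.030, 3.79% of all probes). It sets pellets of different doses against each other, so hormone and dose cannot be told apart in it. The step from castrated with DHT to intact male also passed (limma, adjusted p = 0.026). Each was lost in a fit of only the 2 groups compared and with several single animals left out. Without animals 53 and 61 the means of the DHT groups were -3.82 and -4.16 for Cyp2b13 and -2.73 and -3.36 for Cyp2b9, ovariectomized females first, and the order of the groups was the same.

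**Figure D2:**
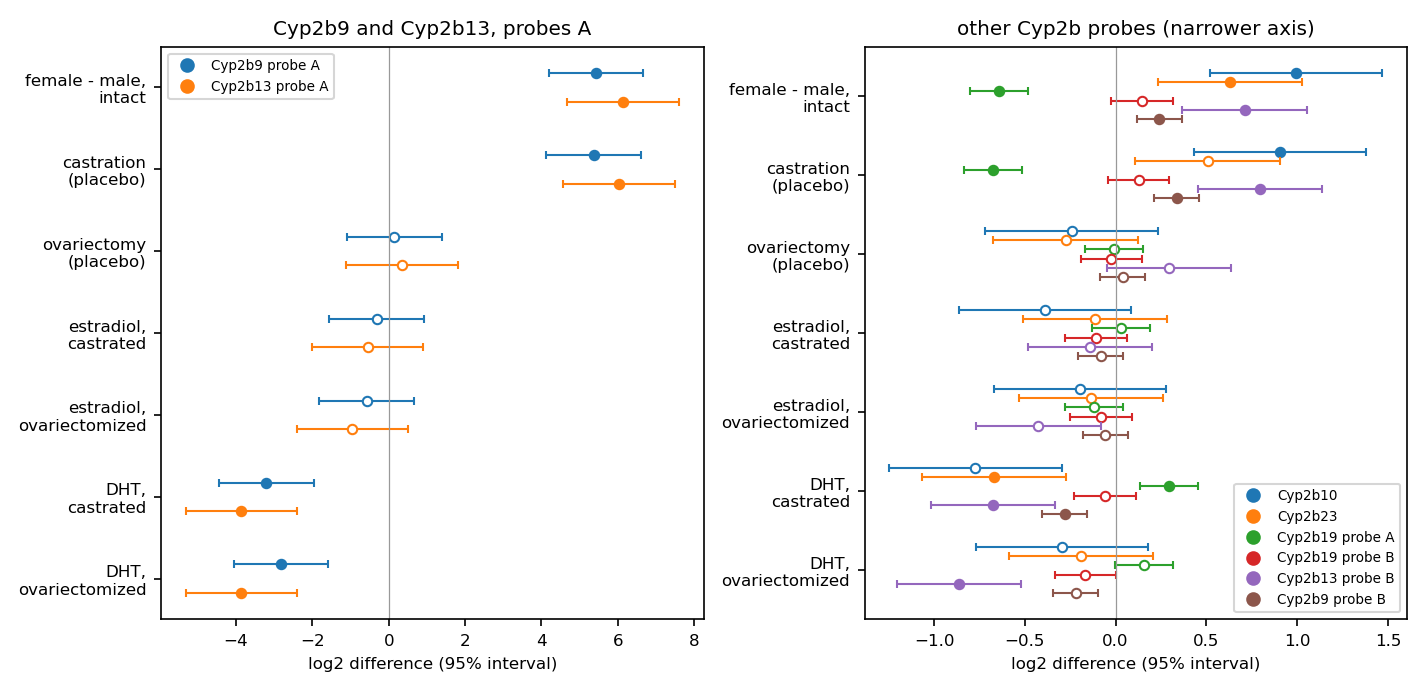
Log2 differences between groups for the 8 Cyp2b probes in 7 comparisons, with 95% intervals from the limma fit of all groups, on separate axes for the widest probes. Filled points passed an adjusted p under 0.05: the intact sex and castration differences of Cyp2b9 and Cyp2b13 probe A lie between 5.37 and 6.14, and the DHT differences between -3.86 and -2.82.

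Within the same livers, Cyp2b13 probe A differed more between intact sexes than Cyp2b9 probe A did. The difference of the 2 probes A was taken in each animal, which compares the sizes of their changes and says nothing on which RNA is more abundant. It read 0.02, 0.24, -0.16, 0.20 and -0.07 in intact females and -0.66, -0.88, -0.91, -0.83 and -0.03 in intact males. It was thus 0.71 larger in females (exact two-sided permutation test, p = 0.0238, adjusted p = 0.0417 over 7 comparisons), with animal 12 alone near the female values. It was 0.66 larger in castrated males with placebo than in intact males (exact permutation test, p = 0.0238, adjusted p = 0.0417). With DHT it fell by 0.66 in castrated males (exact permutation test, p = 0.0238, adjusted p = 0.0417) and stood at -1.04 relative to placebo in ovariectomized females, which did not pass (exact permutation test, p = 0.0397, adjusted p = 0.0556). With estradiol it fell by 0.38 in ovariectomized females, where the groups did not overlap (exact permutation test, p = 0.00794, the smallest that 5 against 5 can give, adjusted p = 0.0417). Without animal 53 the DHT value in ovariectomized females was -1.34 and passed (exact permutation test, adjusted p = 0.0278). Without animal 61 that in castrated males was -0.80 (exact permutation test, adjusted p = 0.0278). Both animals had the highest difference of their groups, so leaving them out had to enlarge these values and is no independent evidence. The difference with estradiol in castrated males, -0.24, did not pass after adjustment (exact permutation test, adjusted p = 0.0556), nor did that with ovariectomy, 0.20 (exact permutation test, adjusted p = 0.0714). The sex result did not pass without animal 1 or animal 4, and the castration and DHT results in males did not pass without animal 24, 25 or 28 (exact permutation test, adjusted p = 0.0556 in each case).

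The animals of a group also varied together in the 2 genes. After each group mean was removed, the deviations of Cyp2b13 and Cyp2b9 probe A over 40 animals had Pearson r = 0.96 and Spearman rho = 0.94 (permutation within groups, adjusted p = 9.3e-05 and 0.00014 over 28 probe pairs). Without animals 53 and 61, the farthest from the median, r was 0.94. The probe sequences were not used here, so whether the probes tell the transcripts of these 2 close paralogs apart was not tested.

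**Figure D3:**
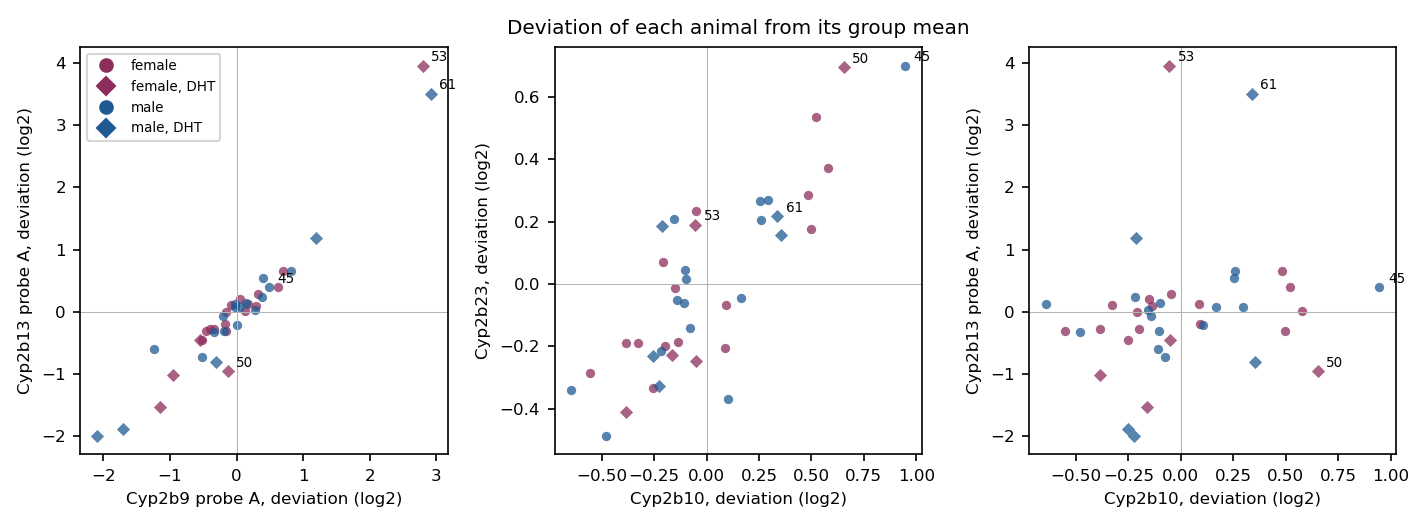
Deviation of each of 40 livers from its group mean (log2), for Cyp2b13 against Cyp2b9 probe A, Cyp2b23 against Cyp2b10 and Cyp2b13 probe A against Cyp2b10. Diamonds are DHT animals, and animals 53, 61, 45 and 50 are numbered; r is 0.96 in the first panel, 0.82 in the second and 0.20 in the third.

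Cyp2b10, the family's main target of CAR, was also higher in intact females and in castrated males than in intact males, over a range of less than 2 log2 units. In intact females it read 0.53, 0.11, 0.30, 0.23 and 1.01, a mean of 0.44 ± 0.36 (SD, n = 5). In intact males it read -0.66, -0.46, -0.71, -0.30 and -0.67, a mean of -0.56 ± 0.17 (SD, n = 5), with no overlap between the sexes. The difference of 0.99 ± 0.23 (SE) was a 1.99-fold higher ratio in females (limma, adjusted p = 0.0042). Castrated males with placebo read 0.51, 0.64, 0.13, 0.24 and 0.20, all above the intact males by 0.90 ± 0.23 (SE) on average (limma, adjusted p = 0.0079). With quantile normalization this castration call did not hold (limma, adjusted p = 0.056).

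DHT in castrated males gave Cyp2b10 values of -0.65, -0.07, -0.09, -0.68 and -0.64, a difference of -0.77 from placebo that did not pass (limma, adjusted p = 0.058). It passed without animal 61 at -0.86 (limma, adjusted p = 0.038) and in the fit of the 2 groups alone (limma, adjusted p = 0.040). In ovariectomized females with DHT it read 0.55, -0.16, -0.27, -0.16 and -0.49, with animal 50 highest rather than animal 53, and the difference was -0.30 (limma, adjusted p = 0.66). The estradiol groups had the widest spread, with SDs of 0.48 and 0.64. Animal 53 lay at -0.16 and thus within its group, while its Cyp2b9 and Cyp2b13 values did not.

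Cyp2b23, a family member whose substrates are little characterized, followed Cyp2b10 closely. It averaged 0.37 ± 0.23 in intact females and -0.26 ± 0.24 in intact males (SD, n = 5 each), without overlap and with a difference of 0.63 ± 0.20 (SE; limma, adjusted p = 0.036). That call was lost with each of 5 single animals left out (adjusted p up to 0.12) and under quantile normalization (0.094). Its castration difference of 0.51 did not pass (limma, adjusted p = 0.087), although it passed in the fit of the 2 groups alone (limma, adjusted p = 0.029). With DHT in castrated males it read -0.75, -0.27, -0.20, -0.66 and -0.24, all below the placebo animals, a difference of -0.67 ± 0.20 (SE; limma, adjusted p = 0.047) that was lost with each of 7 single animals left out and under quantile normalization (adjusted p = 0.075). Over 40 animals the deviations of Cyp2b10 and Cyp2b23 had r = 0.82 and rho = 0.76 (permutation, adjusted p = 9.3e-05 and 0.00014), and r = 0.75 without animals 45 and 50. Cyp2b10 and Cyp2b13 probe A had r = 0.20 and rho = 0.31 (permutation, adjusted p = 0.29 and 0.12). Cyp2b23 and Cyp2b9 probe A lay between, with r = 0.48 and rho = 0.65 (permutation, adjusted p = 0.014 and 0.0015).

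Cyp2b19 probe A ran the other way. In intact males it read 0.63, 0.55, 0.50, 0.21 and 0.75, a mean of 0.53 ± 0.20 (SD, n = 5), while the 5 intact females lay between -0.14 and -0.06. Females were lower by 0.64 ± 0.08 (SE), so the ratio was 1.56-fold higher in males (limma, adjusted p = 3.9e-07). Castrated males with placebo lay between -0.29 and -0.01, below every intact male, a difference of -0.68 ± 0.08 (SE; limma, adjusted p = 1.1e-07). DHT raised it in castrated males by 0.29 ± 0.08 (SE) to a mean of 0.15 (limma, adjusted p = 0.028), a call lost in the fit of the 2 groups alone (adjusted p = 0.081) and with each of 6 single animals left out. Castrated males with DHT still lay 0.38 below intact males (limma, adjusted p = 0.0021), and ovariectomized females with DHT differed from placebo by 0.15 (limma, adjusted p = 0.46). Probe B of Cyp2b19 did not show this pattern: its group means lay between -0.08 and 0.10, its intact sex difference was 0.14 in the opposite direction (limma, adjusted p = 0.32). Both probes carry the same GenBank accession, AF047529, so the 2 readings of this gene disagree. Within groups, Cyp2b19 probe A deviated against Cyp2b9 probe A (r = -0.57 and rho = -0.37; permutation, adjusted p = 0.0071 and 0.072), and r was -0.45 without animals 11 and 53.

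The second probes of Cyp2b9 and Cyp2b13 had the same direction as the first in the sex, castration and DHT comparisons and spanned a much smaller range. Cyp2b13 probe B averaged 0.18 ± 0.11 in intact females and -0.53 ± 0.07 in intact males, a difference of 0.71 ± 0.17 (SE; limma, adjusted p = 0.0045), against 6.14 for probe A. Cyp2b9 probe B, annotated to another accession than probe A, differed by 0.24 ± 0.06 (SE; limma, adjusted p = 0.0082), against 5.43, a call lost under quantile normalization (adjusted p = 0.058). After castration the B probes rose by 0.80 and 0.34, and with DHT in castrated males they fell by 0.68 and 0.28 (limma, adjusted p from 0.00020 to 0.018). Both of these DHT calls were lost in the fit of the 2 groups alone (limma, adjusted p = 0.076 and 0.054), and that of Cyp2b13 probe B was lost without animal 59, 60 or 62. In ovariectomized females with DHT only Cyp2b13 probe B of the pair passed, at -0.86, while Cyp2b9 probe B stood at -0.22 (limma, adjusted p = 0.0060 and 0.070). Without animal 53 Cyp2b9 probe B passed there as well, at -0.28 (limma, adjusted p = 0.0071). Probes A and B of Cyp2b13 deviated together within groups with r = 0.79, or 0.59 without animals 53 and 61, and those of Cyp2b9 with r = 0.48, or 0.24.

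**Figure D4:**
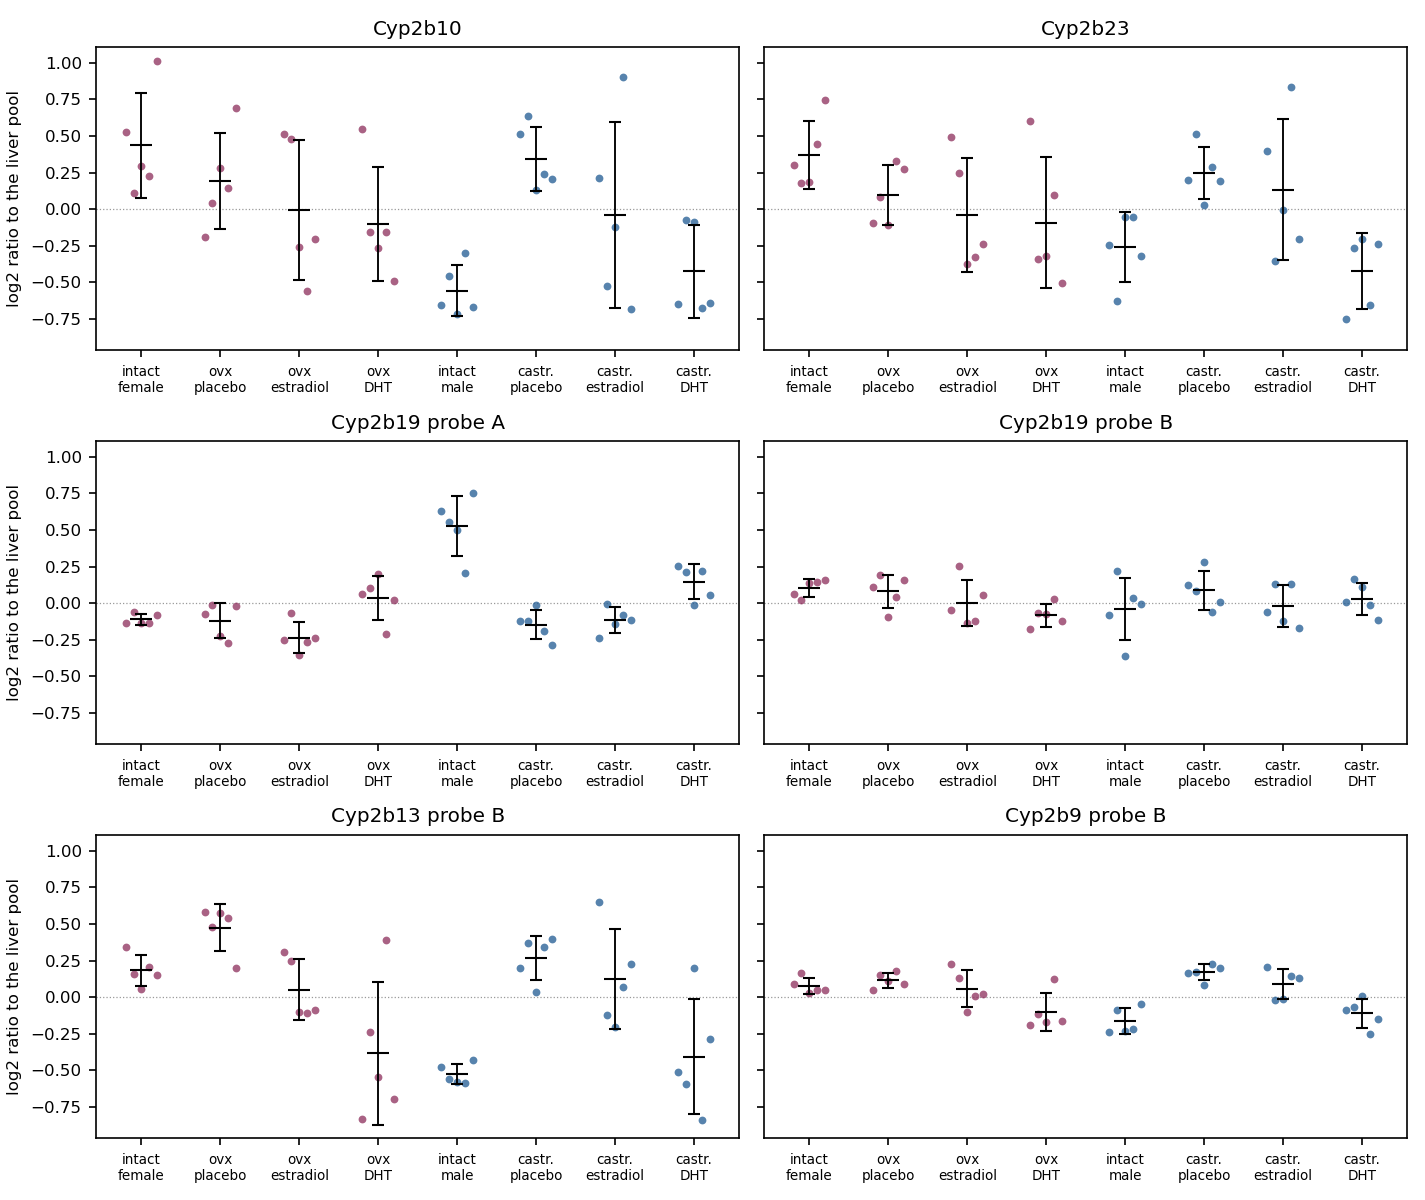
Log2 ratio to the liver pool of the other 6 Cyp2b probes in each of 40 livers, by group, on 1 shared axis, with bars for the mean ± SD of 5. Cyp2b10 and Cyp2b23 are higher in intact females than in intact males, Cyp2b19 probe A is higher in intact males (0.21 to 0.75), and Cyp2b19 probe B is flat.

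Of 11 listed P450 neighbours in the same chromosome 7 cluster 7 were measured, 3 of them Cyp2b genes described above. Of the other 4, Cyp2a5 (coumarin hydroxylase), Cyp2a12 and Cyp2f2 did not pass in the intact sex or castration comparison, with differences from -0.34 to 0.08. Cyp2g1, the olfactory-type P450, differed by 0.05 between the sexes and rose by 0.37 after castration (limma, adjusted p = 0.032). In the DHT comparisons 0 of these 4 passed. The shares of all probes called were 8.69% (sex), 12.1% (castration), 3.47% (DHT, castrated) and 1.15% (DHT, ovariectomized), so 0 of 4 does not set these genes apart. Cyp2a4, which follows Cyp2b9 in the gene order above, was listed but not measured. The median of the 7 was 0.05 in the sex comparison, against 0.01 for all 10842 named genes.

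Receptors and targets of CAR and PXR moved in both directions. Of 30 listed genes 23 were measured, and 5 were higher and 3 lower in intact females than in intact males, with a median of 0.06 against 0.01 for all named genes. After castration 4 were higher and 3 lower, and with DHT in castrated males 2 were higher and 2 lower. Over all probes 8.69%, 12.1% and 3.47% passed in these 3 comparisons. The P450 Cyp2c37 was higher in females by 1.18 and after castration by 1.15 and lower by 0.88 with DHT in castrated males (limma, adjusted p from 4.8e-05 to 0.0063). The transporter Slco1a4 was higher in females by 1.57 and after castration by 1.51, and its difference of -1.06 with DHT did not pass (limma, adjusted p = 0.053). Alas1, the first enzyme of heme synthesis, ran the other way: -0.84 in females, -0.85 after castration and 1.58 with DHT in castrated males (limma, adjusted p = 0.030, 0.023 and 0.00033). The mRNA of CAR itself, Nr1i3, differed by 0.40 between the sexes and by 0.34 after castration, neither past the threshold (limma, adjusted p = 0.13 and 0.18). Of 15 listed genes of electron supply and heme 8 were measured, with 1 lower in intact females, and after castration 1 higher and 1 lower. Those were Alas1 as given and Hmox1, which breaks heme down and rose by 1.21 after castration (limma, adjusted p = 0.0052).

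Of 16 listed genes of the growth hormone to STAT5 route 13 were measured, and 1 passed between the intact sexes, a share near the 8.69% of all probes. That gene was Egfr, the epidermal growth factor receptor, at -1.72, and it fell by 2.40 after castration and was higher by 2.00 and 1.44 with DHT in castrated males and ovariectomized females (limma, adjusted p from 2.6e-07 to 0.0089). Igfbp3, a carrier of insulin-like growth factors, rose by 0.16 after castration (limma, adjusted p = 0.032). The growth hormone receptor gene Ghr differed by -0.48 between the sexes (limma, adjusted p = 0.22). Of 18 listed transcription factors of sex-biased liver expression 15 were measured, with 1 higher in females, a share near that of all probes. After castration 2 were higher and 2 lower, against 12.1% of all probes called. Tox was 0.80 higher in females and 0.83 higher after castration (limma, adjusted p = 0.023 and 0.015). Cux2, a female-biased repressor of male genes, was 0.72 higher in females without passing (limma, adjusted p = 0.16) and rose by 1.14 after castration (limma, adjusted p = 0.012). Foxa1 fell by 0.79 and Nfil3 by 0.61 after castration (limma, adjusted p = 4.3e-05 and 0.034).

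The listed female-biased genes outside Cyp2b that passed between the intact sexes had the direction of Cyp2b9 and Cyp2b13. Of 24 listed 19 were measured, and 12 were higher and 0 lower in intact females, with a median of 1.20. After castration 11 were higher, with DHT in castrated males 9 were lower and in ovariectomized females 7 were lower. Of 24 listed male-biased genes 17 were measured, and 16 were lower in intact females, 16 fell after castration, and 11 and 8 rose with DHT in castrated males and ovariectomized females. Over all probes 8.69% passed between the intact sexes, 12.1% after castration, and 3.47% and 1.15% with DHT in castrated males and ovariectomized females. These lists were chosen for known sex bias, so their direction between intact sexes is no independent evidence. T and B cell markers also moved with sex and castration: of 5 measured, 2 (Cd2 and Cd3d) were higher in each comparison, and their mean ranged from -0.13 to 0.24 in intact females, -0.21 to -0.02 in intact males and 0.06 to 0.21 in castrated males with placebo. The endothelial marker Tek, 1 of 6, and the stellate cell marker Reln, 1 of 4, were higher in both comparisons, and Tek was lower with estradiol in castrated males (-0.24; limma, adjusted p = 0.031). The part of these cells in the Cyp2b results was not tested.

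The genes most like Cyp2b9 and Cyp2b13 were found by the root mean square difference between profiles of the 8 group means, each centred on its own mean, among all other named genes. Slc22a26, an organic anion transporter gene, was nearest to both, at 0.17 from Cyp2b9 and 0.30 from Cyp2b13, where the profiles themselves have root mean squares of 1.92 and 2.23. Slc22a27 of the same transporter family, Hao2 (a peroxisomal hydroxy acid oxidase), Sult3a1 (a sulfotransferase) and A1bg (a plasma glycoprotein) filled the other places for both genes, at 0.76 to 1.06. Slc22a26 had group means of 0.64 in intact females, -5.17 in intact males and 0.65 in castrated males with placebo. With DHT its means were -2.72 in castrated males and -2.32 in ovariectomized females. With the sign turned, the nearest profile to both was Hsd3b5, a male-predominant steroid dehydrogenase, at 0.71 and 0.63, followed by Cyp4a12a, Elovl3, Nat8 and Cyp2d9. These distances describe 8 group means and carry no test.

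The animals that stood apart in Cyp2b9 and Cyp2b13 also stood apart in these genes. The genes were chosen by group means that include these animals, so this likeness is no independent evidence. In ovariectomized females with DHT, animal 53 read 0.44 for Slc22a26, against -3.31 to -2.75 in the other 4, and 1.36 for Hao2, against -4.20 to -3.39. It read -3.87 for Hsd3b5, against -0.22 to 1.38 in the other 4. In castrated males with DHT, animal 61 read -0.08 for Slc22a26 and animal 63 -1.13, against -4.43 to -3.60 in the other 3, the order already seen in Cyp2b9 and Cyp2b13. Animal 61 read -3.19 for Hsd3b5, against 1.20 to 2.41 in the other 4. It stood less far apart in Hao2, at -2.27 against -3.96 to -3.05, and in Cyp2d9, at -0.54 against 0.00 to 1.02. The mean over the 19 female-biased genes was 0.44 in animal 53, against -1.50 to -1.42 in its group, and -0.57 in animal 61, against -2.04 to -1.18. Plasma DHT of single animals was not used here.

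**Figure D5:**
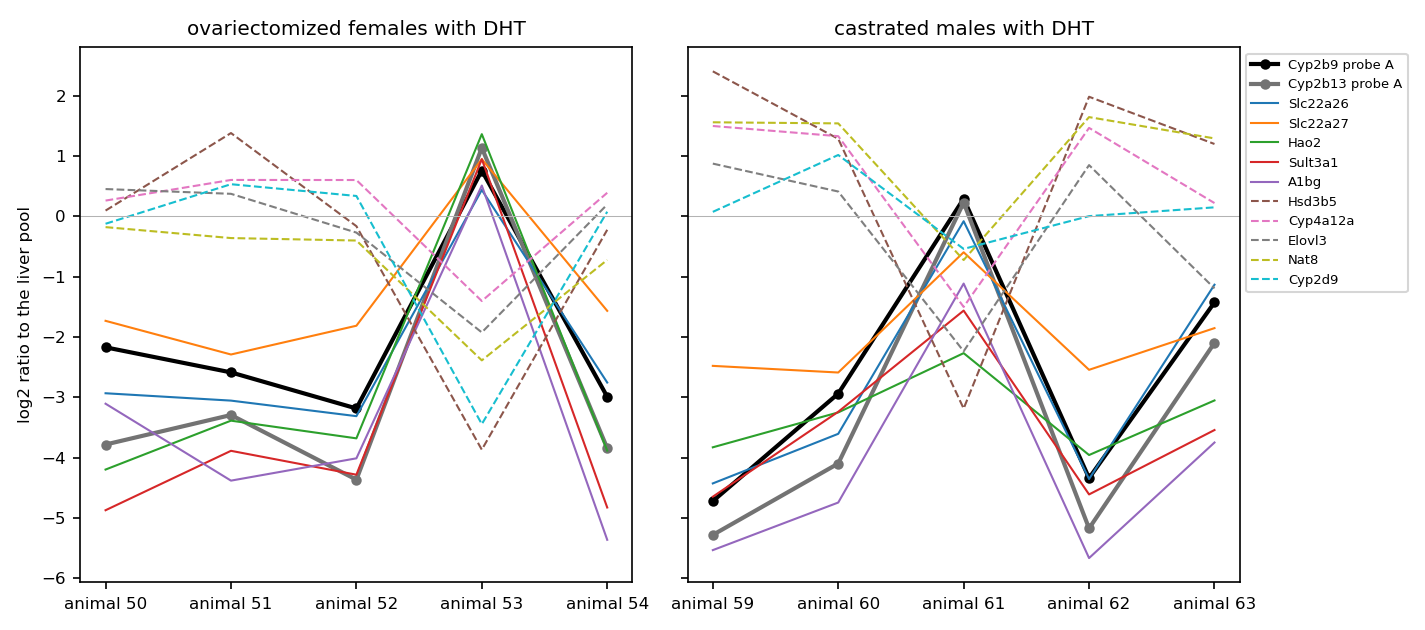
Log2 ratio to the liver pool in the 10 animals with DHT for Cyp2b9 and Cyp2b13 probe A (thick lines), the 5 genes with the most similar profiles (thin solid lines) and the 5 nearest sign-turned profiles (dashed lines). In animal 53 every solid line is above 0 and Hsd3b5 is at -3.87. In animal 61 Hsd3b5 is at -3.19 while the solid lines run from 0.29 for Cyp2b9 to -2.27 for Hao2.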

How the data were processed

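Liver RNA (Qiagen RNeasy, aminoallyl MessageAmp II amplification, per the labels) was hybridized against a pool on 2-colour arrays without a dye swap. The authors deposited log10 ratios of liver to pool for 23574 probes. Their background subtraction, normalization and centring are not given in the sources used here, and neither are signal intensities. Array medians lay between -0.0135 and 0.0109 on the log10 scale. Here each value was multiplied by 3.32 to give log2. Group means of all 40 arrays were fitted with limma 3.58.1 in R 4.3.3 across all probes with empirical Bayes moderation, and p-values were adjusted by Benjamini-Hochberg over the 23574 probes of each comparison, with a threshold of 0.05. The procedure was tested on simulated data in which each probe had the same SD in every group. Probe A of Cyp2b9 and of Cyp2b13 had unequal SDs, largest in the DHT groups, so that test does not cover their DHT calls.

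Probe names came from the platform's probe table: 13665 probes had 1 symbol, 48 several and 9861 none, and symbols of 12662 probes were matched to RefSeq. A gene outside Cyp2b was read by its probe of largest SD. All Cyp2b probes are named. Of each list, up to 4 members with the smallest adjusted p between intact sexes and up to 4 more after castration could be named, beside the 5 nearest profiles of each sign. The members and lists were chosen with earlier results of these data known. The labels number animals but do not say how they were housed or processed, so p-values measure the spread between these animals. Alternatives were quantile normalization, median centring, array weights, robust moderation, named probes only, the mean over a gene's probes, a fit of only the groups compared, and leaving out each animal. Leaving out animals 53 and 61 together, and all alternatives for the DHT groups against intact males and for estradiol against DHT, were added after the data were seen.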

Additional observations from a re-analysis of the deposited data

Results flagged for a closer look

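In 64 tests of 5 livers, 1 for each probe and group, the most extreme animal was farther from the others than Dixon's critical value of 0.71 in 4 cases, and chance alone gives about 1 in 20. Animal 53, an ovariectomized female with DHT, was high for Cyp2b13 probe A (1.14), Cyp2b9 probe A (0.76) and Cyp2b9 probe B (0.12). Animal 20, an ovariectomized female with placebo, was low for Cyp2b13 probe B (0.20).

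For 5 of the 8 probes, ovariectomy and castration had unequal effects by a test of the difference itself. Female minus male effects were -5.69 for Cyp2b13 probe A, -5.23 for Cyp2b9 probe A, -1.15 for Cyp2b10, -0.30 for Cyp2b9 probe B and 0.67 for Cyp2b19 probe A (limma, adjusted p = 0.00055, 0.00023, 0.037, 0.041 and 0.00026). The Cyp2b10 call was lost with each of 10 single animals left out and the Cyp2b9 probe B call with each of 15.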

How the results depend on the processing

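Of 588 alternative values for Cyp2b9 and Cyp2b13 probe A and their difference within an animal, 538 kept their direction and their side of the threshold, and of 934 for the other probes, counts and pairs of groups 814 did. With only the groups compared in the fit, the DHT differences in castrated males, -3.86 for Cyp2b13 and -3.20 for Cyp2b9, no longer passed (limma, adjusted p = 0.063 and 0.079), and 2 rather than 6 of 8 probes did. Quantile normalization left 3 rather than 5 probes with a sex difference in the gonadectomy effect. Leaving out 1 animal gave 3 to 7 probes for DHT in castrated males and 2 to 4 in ovariectomized females. No share of all probes called is given for these alternatives, so such counts have no background. Values near 0 turned sign: the sex difference on estradiol of Cyp2b13 with array weights (-0.028) or the mean over probes (-0.0078), that of Cyp2b9 with quantile normalization (0.094), the sex difference in the DHT effect of Cyp2b13 with median centring (0.0053) or array weights (0.88), and DHT in ovariectomized females for Cyp2b19 with the mean over probes (-0.0056). With the mean over probes, the within-animal difference was 0.23 for ovariectomy and -0.84 for DHT in ovariectomized females, each on the other side of the threshold from the value reported. Leaving out 1 animal gave ranges for Cyp2b13 of -0.12 to 0.19 (sexes on estradiol), -0.54 to 1.33 (sexes on DHT) and -0.99 to 0.88 (sex difference in the DHT effect). For Cyp2b9 they were -0.23 to 0.078, -0.11 to 1.32 and -0.31 to 1.11, and -3.52 to -2.53 for DHT in ovariectomized females. For the within-animal difference they were 0.65 to 0.87 (sex), 0.60 to 0.82 (castration), 0.15 to 0.25 (ovariectomy), -0.28 to -0.19 (estradiol, castrated), -0.80 to -0.53 (DHT, castrated) and -1.34 to -0.84 (DHT, ovariectomized). Apart from the fits with fewer animals, the cause was not tested. No paired analysis was possible because each animal number occurs in 1 group only. Signal over background was unknown, which limits the lowest ratios.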
